A study of Mus musculus with 42 samples.

Results

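The kidney of mice on a chow diet was profiled by RNA sequencing through 1 day, and its daily rhythm is described here across genes. The chow samples are 21 of the 42 samples of the series: kidneys of male wild-type C57BL/6 mice, fed standard chow for 14 weeks from an age of 6 weeks and kept in 12 h of light and 12 h of darkness, with 3 mice at each of ZT 1, 5, 9, 13, 17, 21 and 25. ZT counts hours from lights on, so ZT 1, 5 and 9 fall in the light, ZT 13, 17 and 21 in the dark, and ZT 25 at the clock hour of ZT 1 on the following day. The other 21 samples are kidneys of mice labelled EpSA, with the same strain, sex, times and numbers. Their feed is given only in the study's protocol, which lists chow, a high-fat diet and a high-fat diet containing EpSA.

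The deposited table gives 1 expression value per gene and time, taken to be a mean made by the authors from 3 mice, in FPKM, fragments scaled to transcript length and sequencing depth. No value per mouse stands in it, so the spread between mice is not known. Every error below comes from what a 24 h cosine leaves over the 7 time means. In the main fit limma moderates it, drawing each gene's variance toward that of all genes. Of 56691 genes in the table, 13252 had a mean of at least 1 FPKM and were fitted on log2(FPKM + 1). Amplitude is the height of the fitted cosine above its middle on that scale, which understates the swing of genes with low values, and peak time is in hours after lights on. A gene was called where limma's test of the cosine gave an adjusted p under 0.05.

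In mammals the circadian clock of a cell is a loop of transcription factors. BMAL1 (gene Arntl) pairs with CLOCK or NPAS2 and switches on the Period and Cryptochrome genes, whose proteins shut that pair down again. A second loop of nuclear receptors, REV-ERB (Nr1d1, Nr1d2) against the ROR receptors, sets the timing of Arntl. Factors such as DBP, TEF, HLF and NFIL3 pass the rhythm on to other genes. In kidney, blood flow, filtration and the excretion of salt and water are known to vary through the day.

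The tissue carried the markers of kidney at every time. The 27 genes of proximal tubule transport summed to between 4253 and 4619 FPKM, and Aqp2, the water channel of the collecting duct, stood between 102 and 157 FPKM. Adrenal markers summed to at most 1.58 FPKM, with 5 of 6 at a mean under 0.1. The times were not equal in other ways. Immune cell markers (15 genes) summed to between 206 FPKM at ZT 17 and 977 at ZT 13, and genes of interferon response and antigen presentation (19 genes) to between 354 at ZT 25 and 1179 at ZT 13. The 9 fat markers summed to as little as 132 FPKM (ZT 17) and as much as 301 (ZT 5). The median gene was 0.12 lower on the log2 scale at ZT 21 than at ZT 5, and ZT 21 was the lowest time for 33.4% of tested genes. The highest value of any gene ran from 33834 FPKM at ZT 5 to 62960 FPKM at ZT 21, and its bearing on the median was not tested. Fewer cells of a type and less RNA per cell cannot be told apart in whole tissue.

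Of the 13252 genes, 9 were called, which is 0.0679% of those tested: Arntl, Npas2, Ciart, Dbp, Tef and Nfil3 of the clock, and Slc16a1, Dtx4 and Gm43401 outside it. None of them peaked between 4 and 12 h. Arntl, Npas2, Slc16a1 and Dtx4 peaked between 0.5 and 3.4 h, Dbp, Ciart and Tef between 12.1 and 13.4 h, Gm43401 at 17.2 h and Nfil3 at 23.4 h. Just outside the threshold stood Per3, Clpx and Nat8f5, each with an adjusted p of 0.0501. At an unadjusted p under 0.05 there were 1378 genes (10.4% of those tested, where chance alone gives 662.6), and at an unadjusted p under 0.01 there were 399 (3.01%). These larger sets hold many genes that would pass by chance and serve below as a description. The calls rest on all 7 times: without ZT 5 only Ciart was kept and Nr1d1 was added, and without any other single time no gene passed, with 1085 to 1463 genes then at an unadjusted p under 0.05.

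**Figure D1:**
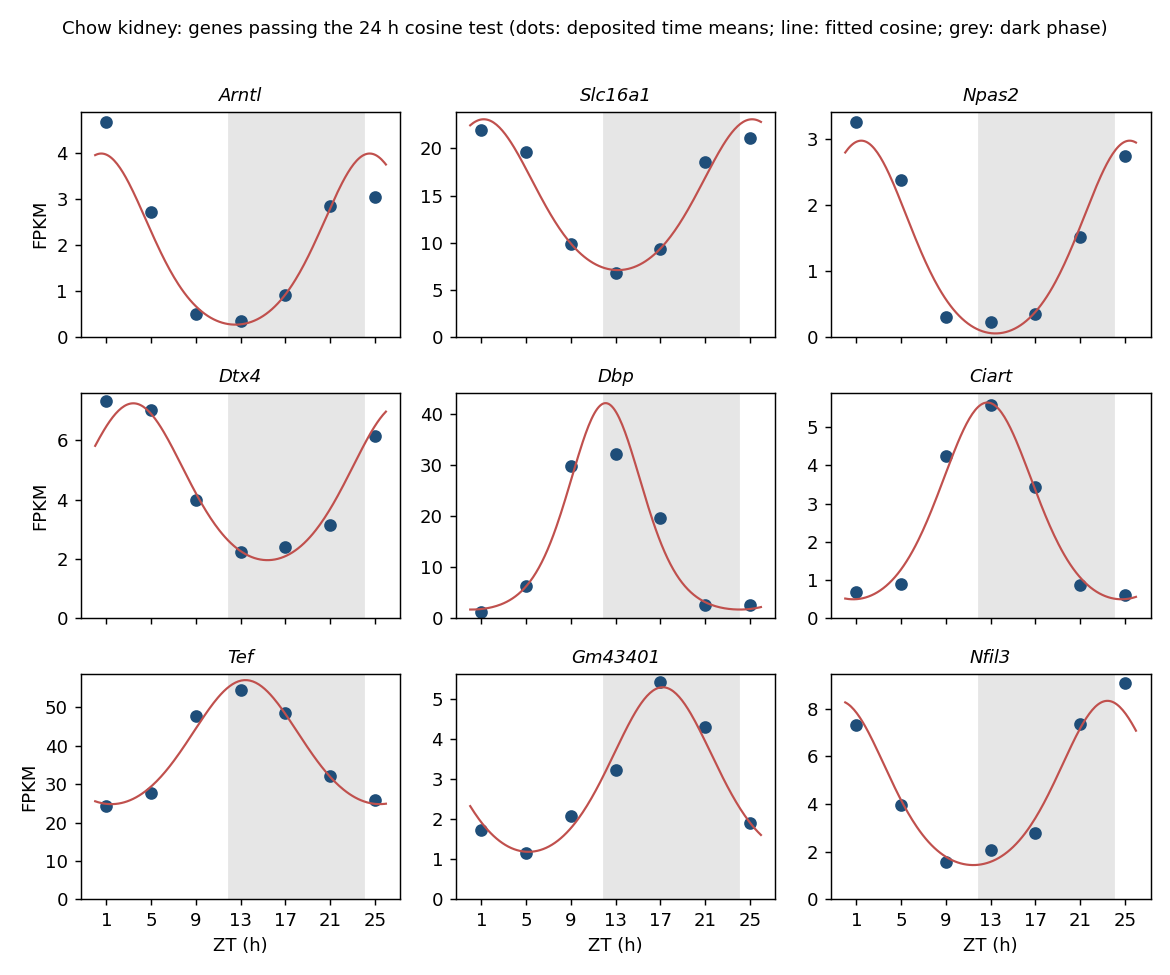
Deposited time means in FPKM (dots) of the 9 called genes against ZT in hours, with the fitted 24 h cosine (line) converted from the log2 scale and the dark phase in grey. Arntl, Slc16a1, Npas2 and Dtx4 are low around ZT 13, when Dbp, Ciart and Tef are high.

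The clock activators were high in the early light. Arntl, the gene of BMAL1, measured 4.68, 2.71, 0.490, 0.350, 0.907, 2.84 and 3.04 FPKM at ZT 1, 5, 9, 13, 17, 21 and 25. Its amplitude was 0.99 ± 0.09 (SE) with a peak at 0.5 ± 0.4 h (limma, adjusted p = 0.0421). Npas2, a partner of BMAL1, measured 3.25, 2.37, 0.300, 0.230, 0.343, 1.52 and 2.75 FPKM in the same order. Its amplitude was 0.96 ± 0.09 with a peak at 1.4 ± 0.4 h (adjusted p = 0.0421). Both genes were under 1 FPKM from ZT 9 to ZT 17 and above 1.5 FPKM at the other 4 times. Clock, the other partner, varied less, from 5.47 FPKM at ZT 1 to 2.98 at ZT 13, with an amplitude of 0.25 ± 0.06, a peak at 1.3 h and an adjusted p of 0.319.

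Among the clock repressors only Ciart was called. Ciart encodes CHRONO, which represses the BMAL1 complex, and measured 0.687, 0.90, 4.25, 5.58, 3.42, 0.860 and 0.603 FPKM from ZT 1 to ZT 25. It was above 3 FPKM at ZT 9, 13 and 17 and under 1 FPKM at all other times, with an amplitude of 1.08 ± 0.08 and a peak at 12.7 ± 0.3 h (adjusted p = 0.0327). The Period genes, which encode inhibitors of the CLOCK and BMAL1 pair, peaked in sequence. Per1 had its fitted peak at 13.0 ± 0.7 h, Per3 at 13.5 ± 0.4 h and Per2 at 15.8 ± 0.5 h. Per1 and Per3 lie within their errors of each other, and Per2 lies later than Per3 by more than the SE of either. Per2 measured 4.33, 2.88, 7.997, 10.7, 14.7, 8.05 and 5.39 FPKM, so it was highest at ZT 17, whereas Per1 (6.08 FPKM) and Per3 (6.88 FPKM) were highest at ZT 13. Of the Cryptochromes, the other inhibitors of the pair, Cry2 peaked with the Period genes at 13.8 ± 0.5 h (amplitude 0.40) and Cry1 at 20.3 ± 0.5 h (amplitude 0.56). Cry1 measured 1.65 FPKM at ZT 5 and 5.10 FPKM at ZT 21. Bhlhe40 (DEC1), another repressor, peaked at 14.4 h, and its paralogue Bhlhe41 lay under the level for testing. None of the Period or Cryptochrome genes passed the adjustment, and all had an unadjusted p under 0.01.

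Among the nuclear receptors, Nr1d1 (REV-ERB alpha) measured 4.46, 17.0, 18.0, 13.9, 8.003, 3.35 and 4.37 FPKM and peaked at 9.6 ± 0.4 h with an amplitude of 1.16 ± 0.13 (adjusted p = 0.0947). It was therefore already near its highest at ZT 5, before the other genes of the evening group. Nr1d2 (REV-ERB beta) peaked at 12.0 ± 0.5 h with an amplitude of 0.85. Rora had an amplitude of 0.10 ± 0.06 and ranged only from 3.86 to 4.96 FPKM (adjusted p = 0.671). It was the only clock gene of the 18 tested whose unadjusted p was above 0.05.

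The output factors held the largest amplitude of all tested genes. Dbp, a PAR bZIP activator, measured 1.21, 6.25, 29.8, 32.0, 19.7, 2.54 and 2.60 FPKM, with an amplitude of 2.00 ± 0.15 and a peak at 12.1 ± 0.3 h (adjusted p = 0.0327). Its level was 26.5-fold higher at ZT 13 than at ZT 1. Tef, of the same family, ran at a higher level with a smaller swing, from 24.3 FPKM at ZT 1 to 54.5 FPKM at ZT 13, with an amplitude of 0.59 ± 0.05 and a peak at 13.4 ± 0.4 h (adjusted p = 0.0412). Hlf, the remaining family member, had an amplitude of 0.30 and a peak at 14.4 h (adjusted p = 0.259). Nfil3 (E4BP4), which represses from the same sites that those factors activate, measured 7.34, 3.94, 1.56, 2.08, 2.80, 7.36 and 9.09 FPKM. Its peak at 23.4 ± 0.4 h lay nearly opposite that of Dbp, with an amplitude of 0.97 ± 0.09 (adjusted p = 0.0421). Over the 18 tested clock genes the median amplitude was 0.76, against 0.09 over all tested genes. Of these 18 genes, 6 were called and 17 had an unadjusted p under 0.01, beside 3.01% of all genes.

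**Figure D2:**
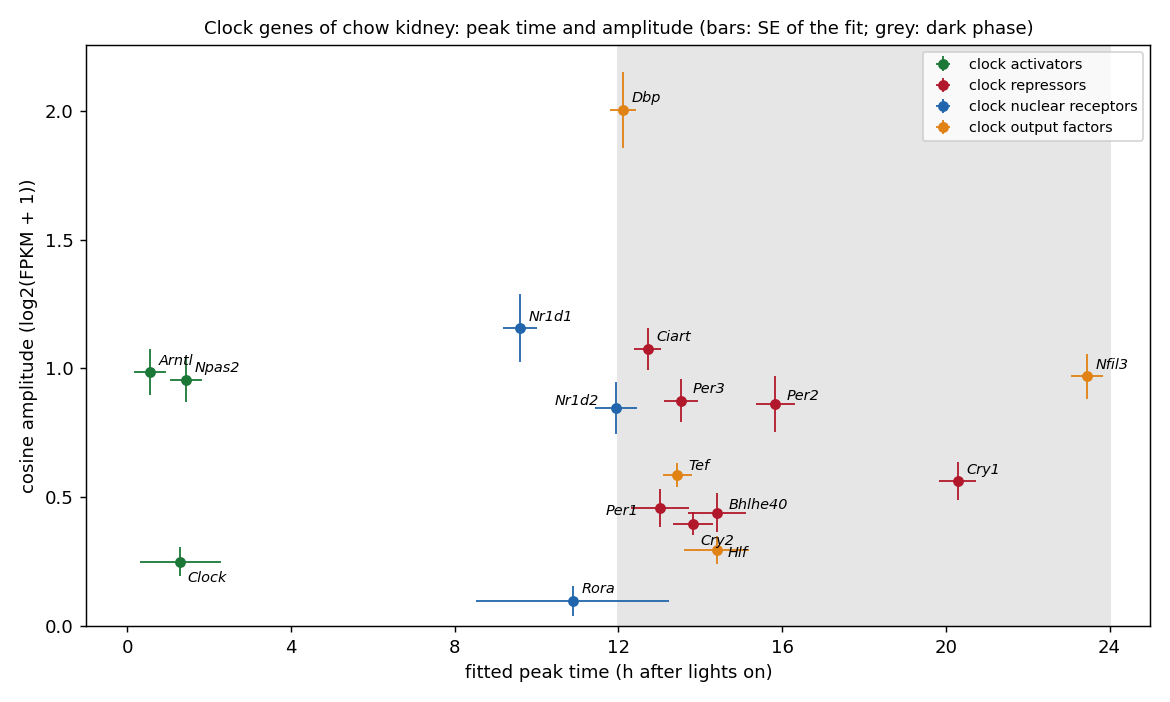
Fitted peak time (x axis, hours after lights on) and amplitude (y axis, log2(FPKM + 1)) of 17 of the 18 tested clock genes, coloured by role, with bars of 1 SE of the fit and the dark phase in grey. Activators lie at 0.5 to 1.4 h, the repressors other than Cry1 between 12.7 and 15.8 h, Cry1 at 20.3 h, and Rora near an amplitude of 0.

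The promoters of several of these genes carry the letters that clock factors are known to bind. RefSeq promoters of GRCm38.p6, each 300 bases from 250 before to 50 after the start, were searched on both strands for the E-box CACGTG (bound by CLOCK and BMAL1), the D-box TTANGTAA (bound by DBP, TEF, HLF and NFIL3), TAGGTCA (bound by ROR and REV-ERB) and the cyclic AMP response element TGACGTCA. Windows of 100 bases are printed below for 7 genes whose rhythm is described here, 5′ to 3′ on the strand of the gene, with each motif in capitals. They show where the motifs stand in early-day and evening genes. Ciart (chr3:95882256-95882355, minus strand), Tef (chr15:81802499-81802598, plus), Per1 (chr11:69098736-69098835, plus) and Slc16a1 (chr3:104638417-104638516, plus) hold E-boxes, Per3 (chr4:151044794-151044893, minus) D-boxes, and Arntl (chr7:113207461-113207560, plus) and Nfil3 (chr13:52980999-52981098, minus) the ROR element, which in Nfil3 reads on the opposite strand.
Ciart: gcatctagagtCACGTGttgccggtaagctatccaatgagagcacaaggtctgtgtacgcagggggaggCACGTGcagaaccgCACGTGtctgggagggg
Tef: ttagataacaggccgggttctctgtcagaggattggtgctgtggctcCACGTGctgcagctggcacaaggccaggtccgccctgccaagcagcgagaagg
Per1: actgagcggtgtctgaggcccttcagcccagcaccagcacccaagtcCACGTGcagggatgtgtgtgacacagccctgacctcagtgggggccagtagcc
Per3: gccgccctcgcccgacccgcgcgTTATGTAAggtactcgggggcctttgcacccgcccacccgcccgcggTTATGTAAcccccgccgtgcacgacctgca
Slc16a1: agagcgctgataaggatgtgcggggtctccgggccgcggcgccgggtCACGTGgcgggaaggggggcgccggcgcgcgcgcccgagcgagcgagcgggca
Arntl: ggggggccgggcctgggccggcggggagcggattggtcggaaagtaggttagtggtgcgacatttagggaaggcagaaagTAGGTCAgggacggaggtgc
Nfil3: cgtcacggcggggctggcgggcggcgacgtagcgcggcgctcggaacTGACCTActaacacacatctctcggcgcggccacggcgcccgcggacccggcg

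Ciart has 3 E-boxes in this window and Per3 has 2 D-boxes, and each of the other 5 windows has a single match. Shares are per gene, counting a gene if any of its promoters has the motif. The E-box stood in 8.09% of all 27025 genes with a promoter and in 11.9% of the 9298 tested genes with a promoter. Among genes with an unadjusted p under 0.01 that peaked between 12 and 16 h, 13 of 57 (22.8%) had it, against 2 of 49 (4.08%) of those peaking between 4 and 8 h. At an unadjusted p under 0.05 the same bins had it in 24 of 125 (19.2%) and 29 of 257 (11.3%), the latter near the share of tested genes. It stood in 33 of all 260 genes with a promoter and an unadjusted p under 0.01 (12.7%), and in 4 of 15 clock genes with a promoter. The D-box stood in 2.72% of all genes with a promoter, in 1.88% of tested genes and in 4 of the same 57 evening genes (7.02%). The ROR element stood in 2.97% of all genes with a promoter, in 2.41% of tested genes and in 4 of the 74 genes peaking between 0 and 4 h (5.41%). The cyclic AMP response element stood in 2.03% of all genes with a promoter, in 3.46% of tested genes and in 1 of the 57 evening genes (1.75%). These shares describe letters in a window, and no test was made of them.

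Outside the clock, Slc16a1 had the second lowest p of all genes. It encodes MCT1, a carrier of lactate, pyruvate and ketone bodies, and measured 22.0, 19.6, 9.84, 6.78, 9.36, 18.5 and 21.1 FPKM. The values at ZT 1 and ZT 25 were close, and ZT 13 was the lowest time. The amplitude was 0.79 ± 0.06 with a peak at 1.2 ± 0.3 h (adjusted p = 0.0327). Dtx4, a Deltex E3 ubiquitin ligase, measured 7.34, 7.03, 3.997, 2.23, 2.40, 3.14 and 6.16 FPKM, with an amplitude of 0.74 ± 0.07 and a peak at 3.4 ± 0.4 h (adjusted p = 0.0421). It was above 6 FPKM at ZT 1, 5 and 25 and at most 3.997 FPKM at the other times.

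Gm43401 (ENSMUSG00000105391; chr3:94392971-94402848, minus strand in GENCODE vM21, GRCm38) is annotated as an antisense RNA. It measured 1.73, 1.15, 2.09, 3.24, 5.43, 4.31 and 1.92 FPKM and peaked at 17.2 ± 0.3 h, with an amplitude of 0.76 ± 0.07 (adjusted p = 0.0421). The sources used here do not say whether reads were counted by strand, so reads of an antisense RNA and of a gene it overlaps cannot be told apart.

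A list of 17 genes that cycle in many mouse tissues was drawn up with results of these data known, so its count is no independent evidence. It had 16 members at an unadjusted p under 0.05, 14 of them under 0.01, where 10.4% and 3.01% of all genes stood. Beyond Slc16a1 and Dtx4 no member passed the adjustment. The largest group, 8 genes, peaked between 12 and 16 h, near the Period genes. Among them were Tspan4, a tetraspanin (10.7 FPKM at ZT 1, 22.4 at ZT 13, peak 13.5 h), and Wee1, a kinase that delays entry into mitosis (3.49 FPKM at ZT 5, 7.85 at ZT 17, peak 14.4 h). Por, the reductase that supplies electrons to microsomal cytochromes P450, peaked at 13.0 h. Usp2, a deubiquitinase, peaked at 14.7 h and Coq10b, a coenzyme Q binding protein, at 13.3 h. Ypel2 (23.3 h) and Leo1, a subunit of the PAF1 transcription complex (0.4 h), peaked with Arntl instead. Tsc22d3 (GILZ), a target of the glucocorticoid receptor, was highest at ZT 21 with 19.4 FPKM and lowest at ZT 5 with 7.72 FPKM, and its fitted peak was at 17.9 h.

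In the fit used here, peak times were distributed differently over all genes and over those that followed the cosine most firmly. Of all 13252 tested genes, 29.6% had their fitted peak between 4 and 8 h and 7.89% between 16 and 20 h. Among the 399 genes with an unadjusted p under 0.01, the fullest bins were 0 to 4 h with 99 genes (24.8%) and 12 to 16 h with 85 genes (21.3%), followed by 4 to 8 h with 78 (19.5%), 8 to 12 h with 68 (17.0%), 20 to 24 h with 49 (12.3%) and 16 to 20 h with 20 (5.01%). Of all tested genes, 2114 peaked between 0 and 4 h and 8.85% between 12 and 16 h. The light period held 67.8% of the fitted peaks of all genes and 61.4% of those of the 399. With the medians of the times set equal these shares were 44.6% and 42.6%, with quantile normalization 49.7% and 46.1%, so the majority in the light was lost under either scaling. Without ZT 5 the light share at an unadjusted p under 0.01 was 44.2%. With no moderation of variance the fullest bins at that threshold were 4 to 8 h (26.6%) and 8 to 12 h (23.4%). The bin of 12 to 16 h then held 12.4%, and the light share was 70.1%, so the difference from all genes was not kept. With ZT 1 and ZT 25 averaged, 4 to 8 h was the fullest bin too, at 27.8%.

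Part of this pattern moved with the scale of the times. When the median of the tested genes was set equal at all times, the share of all genes peaking between 4 and 8 h fell from 29.6% to 15.3%, and that between 16 and 20 h went from 7.89% to 18.1%. Among genes with an unadjusted p under 0.01 the bin of 4 to 8 h then held 10.7%, that of 8 to 12 h 9.69%, that of 20 to 24 h 22.2% and that of 16 to 20 h 8.93%. The bins of 0 to 4 h (22.2%) and 12 to 16 h (26.3%) kept shares close to the 24.8% and 21.3% found without scaling. Without ZT 5 the shares of the 0 to 4, 4 to 8 and 12 to 16 h bins were 15.5%, 8.85% and 26.99%, and without ZT 21 they were 32.4%, 12.5% and 25.3%.

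**Figure D3:**
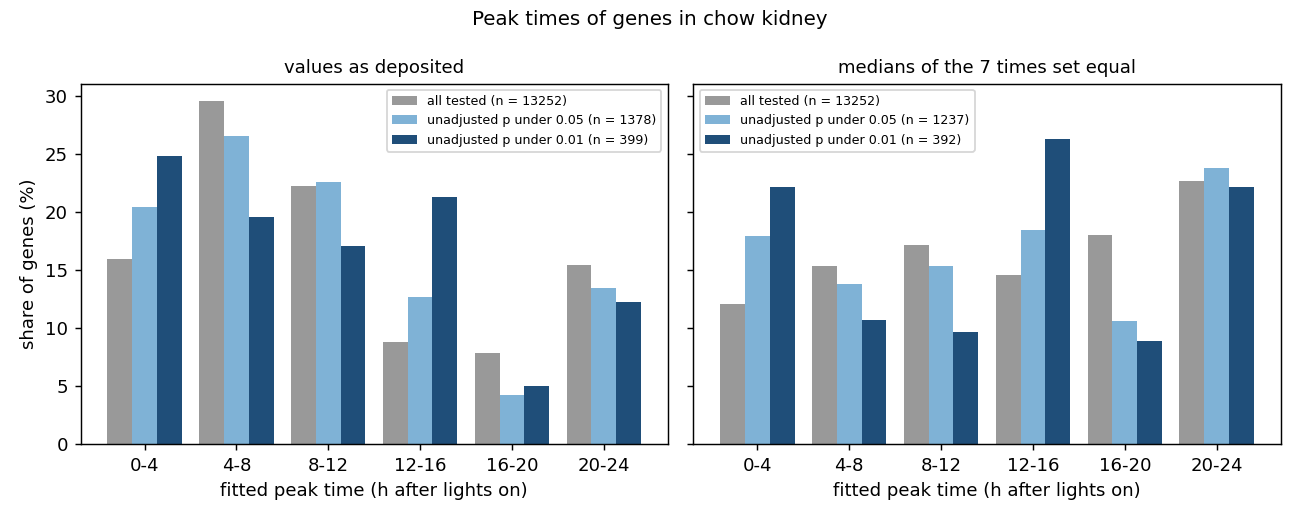
Share of genes (y axis, percent) by fitted peak time in bins of 4 h (x axis), for all 13252 tested genes and for genes at unadjusted p under 0.05 and 0.01, with the values as deposited (left) and with the medians of the 7 times set equal (right). The bins of 4 to 8 h and 8 to 12 h shrink on the right, while at p under 0.01 the bins of 0 to 4 h and 12 to 16 h hold above 20% in both.

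Amplitudes were small for most genes. The median was 0.09 over all tested genes, 0.23 over the 1378 genes at an unadjusted p under 0.05 and 0.31 over the 399 under 0.01. An amplitude of at least 0.5 was reached by 127 tested genes (0.958%), and 84 of these had an unadjusted p under 0.05. For scale, the median absolute difference between ZT 1 and ZT 25, which share a clock hour, was 0.12 on the log2 scale. In all, 114 genes differed by at least 1 between those 2 times, beside 90 genes between ZT 1 and ZT 13, which are 12 h apart. Of the genes at an unadjusted p under 0.05, 1 differed that much between ZT 1 and ZT 25, and 54 did between ZT 1 and ZT 13. That contrast follows from their selection, since the cosine gives ZT 1 and ZT 25 the same value. ZT 21 stood farthest from the others, with a median absolute difference of 0.133 to 0.178 to each of them.

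Outside the clock, the following genes peaked between 0 and 4 h. The genes in this paragraph other than Clpx, Popdc3 and Hpgd were named after their values were seen. Clpx, the ATPase subunit of a mitochondrial protease, measured 71.2, 58.9, 43.9, 36.5, 41.5, 53.4 and 64.8 FPKM, with an amplitude of 0.43 ± 0.04, a peak at 1.5 h and an adjusted p of 0.0501. It was the only 1 of 11 tested mitochondrial proteases and chaperones (9.09%, against 10.4% of all genes) with an unadjusted p under 0.05. Ethe1, a mitochondrial sulfur dioxygenase, measured 81.6 FPKM at ZT 5 and 36.7 FPKM at ZT 13 (peak 2.1 h). Cluh, which binds messenger RNAs of mitochondrial proteins, measured 49.95 FPKM at ZT 25 and 32.8 FPKM at ZT 13 (peak 1.0 h). Ndrg1, a stress-induced gene that is abundant in kidney, went from 216 FPKM at ZT 13 to 524 FPKM at ZT 25, with an amplitude of 0.62 and a peak at 0.3 h (adjusted p = 0.0992). Popdc3, a Popeye domain protein, had an amplitude of 0.80 and stood at 0.460 FPKM at ZT 13 and 3.22 FPKM at ZT 21. Ddc, which makes dopamine in the proximal tubule, measured 21.7 FPKM at ZT 5 and 10.5 at ZT 13 (peak 3.3 h), and Hpgd, which inactivates prostaglandins, 12.0 FPKM at ZT 1 and 6.53 at ZT 13 (peak 2.7 h). None of these passed the adjustment.

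The largest amplitude outside the clock among genes with an unadjusted p under 0.01, that of Cyp24a1, belonged to a gene peaking late in the light, between 8 and 12 h. Cyp24a1, the enzyme that breaks down active vitamin D, measured 9.04, 21.0, 50.6, 39.1, 29.5, 3.27 and 9.86 FPKM. Its amplitude of 1.53 ± 0.25 was second only to that of Dbp among the genes with an unadjusted p under 0.01, and it peaked at 10.6 ± 0.6 h, but its adjusted p was 0.181. Vdr, the vitamin D receptor, was highest at ZT 9 too, at 54.1 FPKM, with an amplitude of 0.20. Igfbp1, a fasting-induced binding protein of insulin-like growth factors, went from 1.68 FPKM at ZT 1 to 6.62 FPKM at ZT 9 (peak 9.6 h, adjusted p = 0.198). In all 3 genes, ZT 9 was the highest time.

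Of 29 tested genes of fatty acid oxidation, 7 had an unadjusted p under 0.05 (24.1%, against 10.4% of all genes) and none passed the adjustment. The median amplitude of the list was 0.13. Of these 7, 4 peaked between 8 and 12 h, among them Cpt1a, which admits fatty acids to mitochondria (67.7 FPKM at ZT 9, 44.0 at ZT 21). Acot1, an acyl-CoA thioesterase, peaked at 2.2 h instead. Without ZT 21 the count was 3 and without ZT 9 it was 4. Among 26 genes of sterol and fatty acid synthesis, 5 had an unadjusted p under 0.05, with fitted peaks from 23.95 to 4.0 h, across lights on. Among them were Idi1, Fdps and Msmo1 of the sterol pathway and Insig1, a brake on it. Without ZT 9 the count was 8. Msmo1 stood at 7.55 FPKM at ZT 1 and 3.93 at ZT 9. Genes of gluconeogenesis and fasting had 5 of 18 at that threshold, with peaks in 5 of the 6 bins, and 3 of 18 without ZT 5. G6pc, which releases glucose, was lowest at ZT 5 with 104 FPKM and highest at ZT 17 with 235 FPKM.

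The lists of tubular transport genes had 6.25% to 23.5% of members at an unadjusted p under 0.05, beside 10.4% of all genes. None of their members passed the adjustment. In the proximal tubule list 4 of 26 tested genes (15.4%) had an unadjusted p under 0.05, and the list's median amplitude was 0.11. They were the sulfate transporter Slc13a1 (51.4 FPKM at ZT 9, 25.7 at ZT 21), the exporters Abcc4 and Abcc2, and Cubn, a receptor for filtered proteins, with peaks between 9.5 and 12.1 h. The count was 1 without ZT 9 or ZT 21, 2 without ZT 5 or ZT 25, 6 without ZT 1 or ZT 17 and 8 without ZT 13, and with no moderation of variance it was 0. Of 17 amino acid transporters 4 (23.5%, against 10.4% of all genes) had such a p. Among them were Slc6a19, the main importer of neutral amino acids (59.5 FPKM at ZT 9, 26.7 at ZT 1), and Slc7a7, an exchanger of basic amino acids (34.2 FPKM at ZT 9, 18.1 at ZT 21). Both peaked near 11 h. Slc38a3, a glutamine transporter, peaked at 3.8 h. In the loop and distal tubule 2 of 23 genes (8.70%) had such a p, Cldn10 and Slc8a1, and in the collecting duct 1 of 16 (6.25%), Hsd11b2, which inactivates glucocorticoids. These last shares lie near the 10.4% of all genes.

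Of 21 xenobiotic enzymes and transporters, 7 (33.3%, against 10.4% of all genes) had an unadjusted p under 0.05, with peaks from 8.6 to 19.0 h. Without ZT 9 the count was 4, and with no moderation of variance it was 3. Ephx1, microsomal epoxide hydrolase, measured 38.2, 45.6, 56.1, 37.6, 32.9, 23.95 and 25.8 FPKM and peaked at 8.6 h (amplitude 0.52, adjusted p = 0.273). Cyp4b1, a cytochrome P450 at 1121 to 1532 FPKM, peaked at 15.8 h, and Ces1d, a carboxylesterase, at 19.0 h with 164 FPKM at ZT 9 and 235 FPKM at ZT 21. Oxylipin enzymes, the subject named in the study's title, had 4 of 17 tested genes (23.5%, against 10.4%) at that threshold: Hpgd, Ephx1, Ptges and Tbxas1. The count was 2 without ZT 5, with a linear term and with the immune covariate. The last pair peaked at 5.5 and 6.9 h with amplitudes of 0.22 and 0.19. Nat8f5 and its neighbour in sequence Nat8f6, members of a family of near-identical N-acetyltransferase genes, had amplitudes of 0.64 and 0.66 with peaks at 17.4 and 15.6 h. Their split of reads is uncertain.

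Chaperones of the endoplasmic reticulum were high from the late dark to ZT 5 in the light. Of 19 genes for protein folding in the endoplasmic reticulum, 8 (42.1%, against 10.4% of all genes) had an unadjusted p under 0.05, and all 8 peaked between 22.4 and 1.7 h. Hspa5 (BiP), the main such chaperone, measured 162, 174, 98.6, 102, 123, 231 and 154 FPKM (amplitude 0.47 ± 0.12, peak 23.2 h, adjusted p = 0.376). Creld2 measured 46.3 FPKM at ZT 21 and 19.1 at ZT 9, and Calr, calreticulin, 318 FPKM at ZT 1 and 224 at ZT 17. No member passed the adjustment. The list mean on the log2 scale was highest at ZT 21 (5.57) and lowest at ZT 9 (5.12). At ZT 5 it was 5.49, above the 5.45 of ZT 1 and the 5.32 of ZT 25. Of the 19 genes, 2 had an unadjusted p under 0.05 without ZT 9 or with no moderation of variance, and 3 without ZT 13. Cytosolic heat shock genes had 3 of 16 at that threshold, Hsp90aa1, Hspa8 and Dnaja1, with peaks from 20.3 to 0.5 h. That count was 0 without ZT 13, 1 without ZT 9 or ZT 21 and 6 without ZT 25. The heat shock list mean on the log2 scale was 5.24 at ZT 1 but 4.96 at ZT 25, the same clock hour. Its lowest value was 4.90, at ZT 9.

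Of 17 tested matrix and fibroblast genes, 13 (76.5%, against 10.4% of all genes) had an unadjusted p under 0.05, and 10 of these were among the 366 genes of that set peaking between 4 and 8 h. Dcn, the proteoglycan decorin, measured 10.2, 10.8, 8.50, 7.28, 7.05, 7.46 and 9.41 FPKM (amplitude 0.28 ± 0.05, peak 4.1 h, adjusted p = 0.188). Col3a1, a fibrillar collagen, was at 4.95 FPKM at ZT 1 but 2.52 by ZT 17, as was Pdgfrb, a receptor of pericytes and fibroblasts, with 9.24 FPKM (ZT 5) and 5.49 (ZT 17). The count was 5 without ZT 5, and 6 with the mean of the immune markers as a covariate. Markers of other cells were also highest at ZT 5: endothelial genes (2 of 11 at that threshold, and 0 without ZT 5) summed to 197 FPKM there, and podocyte markers (2 of 8) to 92.7 FPKM. Their part in the matrix result was not tested.

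Immune markers moved between times, and the share that followed a 24 h cosine lay near that of all genes. Cd14 and Lyz2 of 15 (13.3%, against 10.4% of all genes) had an unadjusted p under 0.05. Of the 19 interferon and antigen presentation genes none did, and a list of this size holds few genes at 10.4%. Lyz2, a lysozyme of macrophages, measured 77.3, 74.9, 47.6, 52.9, 27.6, 29.3 and 39.8 FPKM. Without ZT 1 the counts were 10 of 15 and 17 of 19, and without ZT 25 they were 8 and 0. With ZT 1 and ZT 25 averaged they were 11 and 7. Irf7, the interferon regulator, measured 11.5 FPKM at ZT 1, against 3.29 a full day later. The antibody genes Ighm, Ighg2c and Igkv1-110 peaked at 3.8 to 4.9 h. They were picked as large amplitudes within bins of peak time, and antibody genes were not counted as a set. Ighm measured 26.9 FPKM at ZT 5 and 5.80 at ZT 17. None of them passed limma's adjustment (adjusted p = 0.163, 0.270 and 0.294). In EpSA the same test gave them an unadjusted p of 0.605, 0.754 and 0.179.

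**Figure D4:**
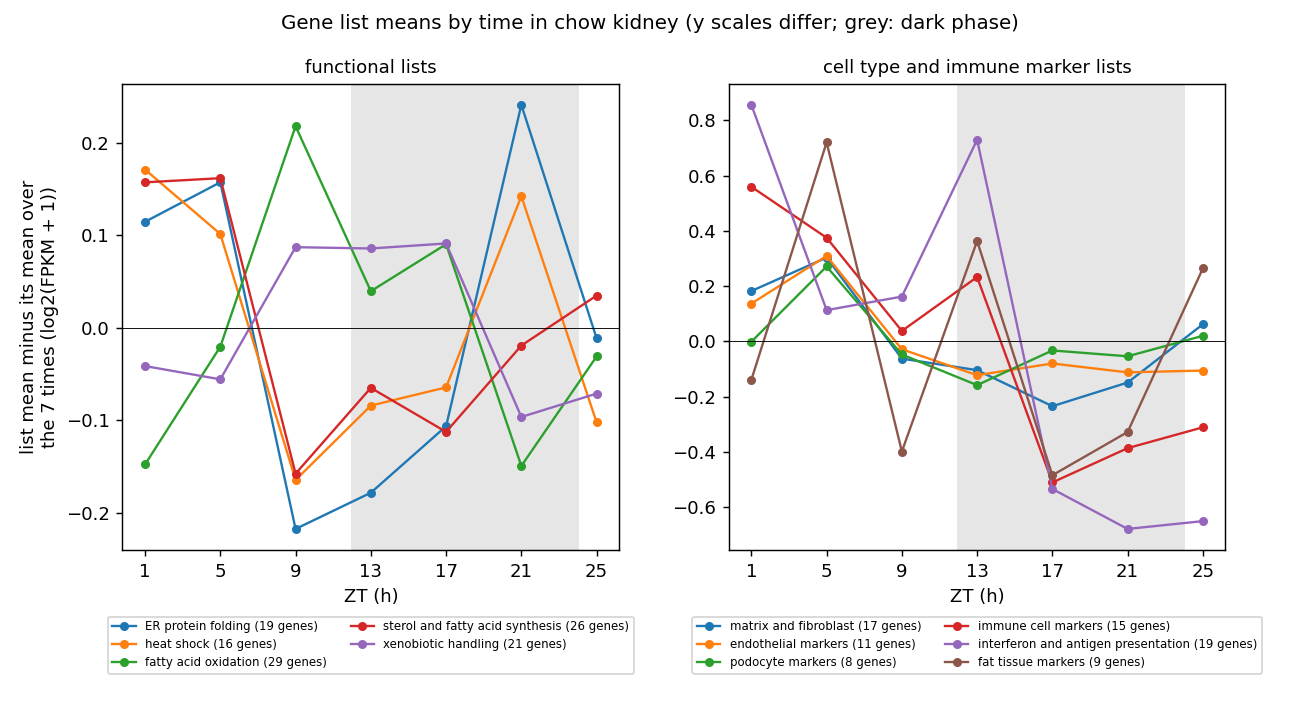
Mean log2(FPKM + 1) of each list's tested genes at each ZT, minus its mean over the 7 times, for functional lists (left) and cell type and immune marker lists (right), with the dark phase in grey and different y scales. Fatty acid oxidation is highest at ZT 9, where endoplasmic reticulum folding is lowest, and the interferon list is high at ZT 1 and ZT 13 but not at ZT 25.

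Several large housekeeping groups held few or no genes that followed a 24 h cosine. No member had an unadjusted p under 0.05 among 13 mitochondrially encoded genes and 28 nuclear genes of the respiratory chain. Nor did any among 29 cytosolic ribosomal proteins and 20 enzymes of amino acid breakdown. Of 31 proteasome genes 1 did (3.23%, and 5 genes without ZT 17). All genes stood at 10.4%, and lists of this size hold few genes at that share. For the respiratory chain the lack of such genes rests on ZT 17, without which 10 of 28 had such a p. Median amplitudes of these 5 lists ran from 0.08 to 0.14, beside 0.09 for all tested genes. A rhythm of small amplitude in them was not detectable with 7 time means.

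The EpSA kidneys are other mice and give a separate reading of the genes found in chow. Of the 9 called genes, 8 also had an unadjusted p under 0.05 in EpSA (8.56% of all genes did), and 4 passed the adjustment there (0.0528% of all genes): Dbp, Arntl, Slc16a1 and Npas2. Gm43401 was the exception (adjusted p = 0.622). In the other 8 the EpSA peak was earlier, by 1.7 h in Npas2 to 4.5 h in Dtx4. The test of the difference in rhythm gave 8 of the 9 an unadjusted p under 0.05, where 4.65% of all genes had one, but no gene of the 13252 passed the adjustment (0% called, lowest adjusted p = 0.821). The 9 genes were chosen for a close cosine fit in chow means that this test uses too. Their share and that of all genes are therefore not like for like. Amplitudes were close in both diets for Dbp (2.00 in each) and Slc16a1 (0.79 in chow and 0.80 in EpSA). Among the clock repressors that were not called, the fitted shift ran from earlier to later. The EpSA peak minus the chow peak was -0.87 h in Per1, 0.02 h in Per2, -1.55 h in Per3, -1.48 h in Cry1, -0.04 h in Cry2 and 3.49 h in Bhlhe40. The SE of the EpSA peak was 0.85, 1.10, 0.48, 0.78, 2.37 and 1.41 h in the same order. With such errors the shifts of the Period and Cryptochrome genes are not clearly apart. Cry2 and Bhlhe40 had an unadjusted p above 0.05 in EpSA. Among the 399 genes with an unadjusted p under 0.01 in chow, 160 (40.1%) had an unadjusted p under 0.05 in EpSA, and 132 of these 160 peaked earlier in EpSA. The median EpSA peak minus chow peak over them was -1.55 h, with quartiles of -2.74 and -0.49 h.

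**Figure D5:**
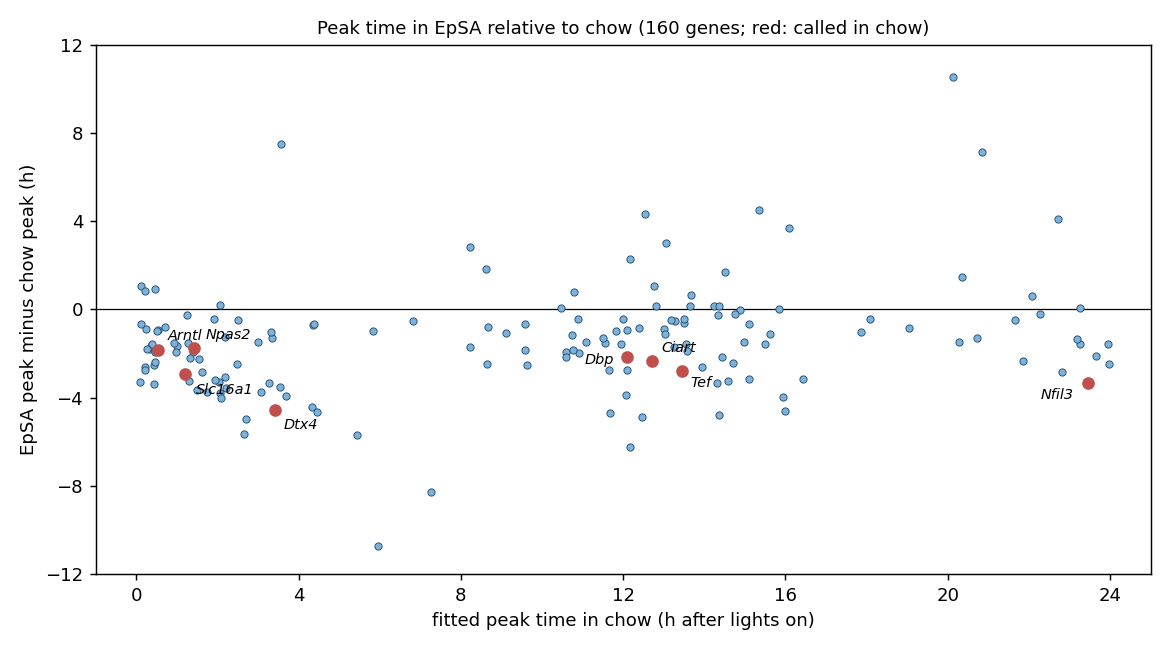
EpSA peak minus chow peak (y axis, hours, negative where EpSA is earlier) against the chow peak (x axis, hours after lights on) for the 160 genes with an unadjusted p under 0.01 in chow and under 0.05 in EpSA, with the called genes in red. Of the 160, 132 lie under 0, and no gene of all tested passed the adjusted test of this difference.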

How the data were processed

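Kidney RNA was sequenced as paired-end reads, per the labels' protocols. Neither the build nor the aligner, counter, annotation or scaling is given in the sources used here. Each diet has 1 table with 7 expression columns. The headers name no unit, and the deposited values are taken as FPKM, with each column a mean made by the authors from 3 mice, since 100% of the values end in 0, 3 or 7 thousandths. The deposited rhythm statistics were not used. Depth is unknown, and p-values measure the spread of time means about the curve, not between mice.

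The fit took genes whose chow mean reached 1 FPKM, and was made on log2(FPKM + 1), a pseudocount of 1, with a 24 h cosine and sine in limma 3.58.1 (R 4.3.3), which left 4 residual degrees of freedom. Moderation of the variance over genes added 3.34 prior degrees of freedom. P-values were adjusted by Benjamini-Hochberg over the 13252 genes tested. The EpSA table was fitted on the same genes, with the diet difference as an interaction over 14 means. The fit was checked on simulated data.

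The genes and the 38 lists were chosen with earlier results of these data known. The text names every called gene and the tested clock genes, and takes its other examples from a rule that lists, per 4 h bin of peak time the 4 largest amplitudes at an unadjusted p under 0.01, and up to 4 members per list of lowest p. Genes known by a model number were passed over in the bins, a few of the selected genes are left out, and where others are named they were chosen after their values were seen. Gene positions come from GENCODE vM21 (GRCm38), which lacks 258 of the tested genes, and promoters from RefSeq. Alternatives were other pseudocounts, level filters and scalings, leaving out each time, averaging ZT 1 and ZT 25, a linear term, no moderation of variance, an intensity trend and, added after the data were seen, the immune marker mean as covariate.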

Additional observations from a re-analysis of the deposited data

How the results depend on the processing

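The count of 9 called genes did not hold under most alternatives. No gene passed limma's adjustment with a pseudocount of 0.1, with no filter on low values, with ZT 1 and ZT 25 averaged, with a linear term in hours or with no moderation of variance, where 1381, 3184, 1513, 1084 and 1162 genes had an unadjusted p under 0.05. With a mean of at least 5 FPKM 5 genes were called, 2 of them clock genes, and 697 had that p. Leaving out 1 time gave 0 to 2 calls, 0 to 2 of them clock genes, and 812 genes (without ZT 5) to 1463 genes (without ZT 25) at that p. With an intensity trend 13 were called, with median scaling 8, with quantile normalization 7, with a pseudocount of 0.5 9 and with the immune covariate 8. The fitted peaks of the 9 genes moved by at most 0.71 h in any alternative. With 1 time left out, 16 to 17 clock genes kept an unadjusted p under 0.05. No paired analysis was possible because the columns are means per time and carry no replicate numbers. What 7 means without a spread between mice can show is limited: the median amplitude of genes at an unadjusted p under 0.05 was 0.23, and the period was fixed at 24 h.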

Other observations

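Among genes with an unadjusted p under 0.01 in chow, 80 were known by a model number or as small RNAs, 65 of which the annotation places. Of these, 29 overlapped a tested gene, in 30 pairs, and in 10 pairs the partner had an unadjusted p under 0.05. Gm17597 peaked at 14.8 h beside Tef at 13.4 h, and Gm20511 at 14.4 h beside Fmnl1, an actin regulator, at 13.3 h. Gm45909 lies on the same strand as Ces1d and peaked at 13.5 h, with Ces1d at 19.0 h. The pairs were chosen after their values were seen.

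Mir7651, a small RNA gene inside Zmiz2 on the same strand, had the largest amplitude of the named genes peaking between 4 and 8 h (0.82, peak 7.0 h), while Zmiz2 had an amplitude of 0.09. Of the genes just outside the threshold, Palm3, a paralemmin, had an adjusted p of 0.0704 and measured 9.29 FPKM at ZT 25 and 4.20 at ZT 13. Castor1, an arginine sensor of the mTORC1 pathway, measured 6.92 FPKM at ZT 9 and 3.57 at ZT 1, and Slc5a6, a carrier of biotin and pantothenate, 6.37 FPKM at ZT 9 and 3.39 at ZT 21 (adjusted p = 0.0992 for both).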
